A study of Homo sapiens with 2 samples.

Results

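The promoters of the ion channel and GABA receptor genes were compared between 2 libraries of methylC-capture sequencing (MCC-Seq), 1 from SKNO-1 cells and 1 from SKNO1-siAE cells. SKNO-1 is a human acute myeloid leukemia cell line that carries the RUNX1-RUNX1T1 (AML1-ETO) fusion made by the t(8;21) translocation. SKNO1-siAE is its derivative, made by infection with a lentivirus (pRRLcPPT.hPGK) whose siAGF1 oligonucleotides target the junction of the AML1-ETO mRNA and silence the fusion. Both lines grew in the same medium, and the comparison asks how promoter methylation differs when the fusion is present and when it is silenced. Each line gave 1 library and SKNO1-siAE is 1 derivative line, so there was no replicate error, and silencing of the fusion cannot be told apart from infection, from selection of the derivative line or from anything else that differed between 2 cultures.

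The genes were the autosomal protein-coding genes whose symbols start with KCN (potassium channels), SCN and a digit (voltage-gated sodium channels), CACNA, CACNB or CACNG (voltage-gated calcium channels) or GABR (ionotropic GABA receptors). A total of 148 genes of 18893 met this rule. A promoter ran from 1500 bp upstream to 500 bp downstream of a protein-coding transcript start, and a start counted as measured when at least 10 CpG cytosines in this window had at least 5 reads in each library. Of the 148 genes, 141 had a measured start, and of their 701 starts 551 were measured. Over all autosomal protein-coding genes, 16774 genes and 57809 of 75620 starts were measured. The 7 genes without a value were GABRR3, KCNH3, KCNJ13, KCNJ4, SCN1A, SCN2A and SCN3A, whose best starts held 0 to 9 such sites. A gene was represented by the start with the most sites. Summed over sites, so that a read counts once for each site it covers, the SKNO-1 library had 83620068 site reads over 4713346 sites and the SKNO1-siAE library 82164216 over 4694016 sites. Their shared sites had a median depth of 16 and 15 reads and a mean level of 0.587 and 0.655. The level of a site is the share of its reads that were methylated (0 to 1), the level of a promoter is the mean over its sites, and a difference is the level in SKNO-1 minus the level in SKNO1-siAE.

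Ion channels open a path for ions through the cell membrane. Potassium channels set the resting potential and end electrical spikes, sodium channels start the spikes, calcium channels turn a change of voltage into a calcium signal, and GABA-A receptors are chloride channels opened by the inhibitory transmitter GABA. The pore is made by one set of subunits (most KCN genes, SCN genes ending in A, CACNA1 genes), and auxiliary subunits (KCNE, KCNIP, KCNAB and KCNMB, SCN genes ending in B, CACNA2D, CACNB and CACNG) change the number of pores at the membrane or how they open. Most of these genes are known for their use in nerve, muscle, heart or gland, and a few, such as KCNA3 and KCNN4, also for their use in blood cells.

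The following stretches show the bases behind large differences in each direction. For each gene the stretch is the 150 bp upstream of its start, outside annotated exons, with the most sites shared by both libraries. The sequence is that of GRCh37, 5′ to 3′ on the strand of the gene, and capitals mark the CpG dinucleotides at which a site was measured in both libraries. The first set is from 3 genes lower in SKNO-1. CACNB1 is from chr17:37354003-37354152, - strand, outside any annotated gene. KCNIP2 is from chr10:103599630-103599779, - strand, in an intron of longer KCNIP2 transcripts. KCNJ10 is from chr1:160040342-160040491, - strand, in an intron of a long noncoding RNA gene on the other strand.
CACNB1: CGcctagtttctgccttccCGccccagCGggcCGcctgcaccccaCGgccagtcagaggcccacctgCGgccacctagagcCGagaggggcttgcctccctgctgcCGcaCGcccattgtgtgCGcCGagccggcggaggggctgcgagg
KCNIP2: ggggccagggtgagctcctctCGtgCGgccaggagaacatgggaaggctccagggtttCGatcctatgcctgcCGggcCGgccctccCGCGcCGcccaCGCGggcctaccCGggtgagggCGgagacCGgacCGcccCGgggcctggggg
KCNJ10: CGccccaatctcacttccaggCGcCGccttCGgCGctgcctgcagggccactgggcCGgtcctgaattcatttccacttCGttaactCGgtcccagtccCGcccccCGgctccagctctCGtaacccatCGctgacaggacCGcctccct

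In the KCNIP2 stretch, 26 sites gave 0 methylated of 196 site reads in SKNO-1 against 324 methylated of 324 in SKNO1-siAE. In the CACNB1 stretch these were 0 of 55 and 84 of 86 over 11 sites. The KCNJ10 stretch was mixed, with 45 of 287 and 391 of 428 over 18 sites.

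The second set is from 3 genes higher in SKNO-1. KCNN2 is from chr5:113697297-113697446, + strand, in an intron of longer KCNN2 transcripts. CACNA2D1 is from chr7:82073313-82073462, - strand, outside any annotated gene. SCN8A is from chr12:51984475-51984624, + strand, in an intron of SCN8A.
KCNN2: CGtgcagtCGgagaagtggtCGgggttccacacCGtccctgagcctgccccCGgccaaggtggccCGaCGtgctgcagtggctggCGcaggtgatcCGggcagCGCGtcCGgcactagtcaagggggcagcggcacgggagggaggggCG
CACNA2D1: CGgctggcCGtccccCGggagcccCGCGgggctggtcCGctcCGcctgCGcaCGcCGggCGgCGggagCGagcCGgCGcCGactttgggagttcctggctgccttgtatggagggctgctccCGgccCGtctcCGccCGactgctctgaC
SCN8A: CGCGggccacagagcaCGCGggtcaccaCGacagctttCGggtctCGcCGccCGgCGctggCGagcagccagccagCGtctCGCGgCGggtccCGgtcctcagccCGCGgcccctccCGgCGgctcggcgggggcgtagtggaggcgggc

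Here the methylated library was SKNO-1. In the KCNN2 stretch 13 sites gave 131 methylated of 148 site reads in SKNO-1 against 0 of 139 in SKNO1-siAE. The CACNA2D1 stretch had 294 of 414 and 14 of 234 over 21 sites, and the SCN8A stretch had 352 of 392 and 71 of 424 over 25 sites. A read covers several neighbouring sites, so site reads outnumber the DNA molecules behind them. Without molecular identifiers, the confidence intervals given further on cover counting error only.

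Channel promoters were mostly methylated in both lines and, where they differed, mostly less so in SKNO-1. The median gene had a level of 0.695 in SKNO-1 and 0.837 in SKNO1-siAE, where the median over all genes was 0.179 and 0.256. Of the 141 genes, 39 (27.7%) were lower in SKNO-1 by 0.2 or more, against 14.1% of all measured genes. Only 4 (2.84%) were higher by 0.2 or more, against 2.95% of all genes. These 4 were KCNN2, CACNA2D1, SCN8A and KCNJ2. The remaining 98 genes were within 0.2, and 112 of the 141 (79.4%) had a difference below 0, against 61.6% of all genes. The median difference was -0.0840 for the channel genes and -0.00848 for all genes. A difference of at least 0.5 was found for 9 genes lower (6.38%, against 4.45% of all genes) and 2 genes higher in SKNO-1 (1.42%, against 0.841%).

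**Figure D1:**
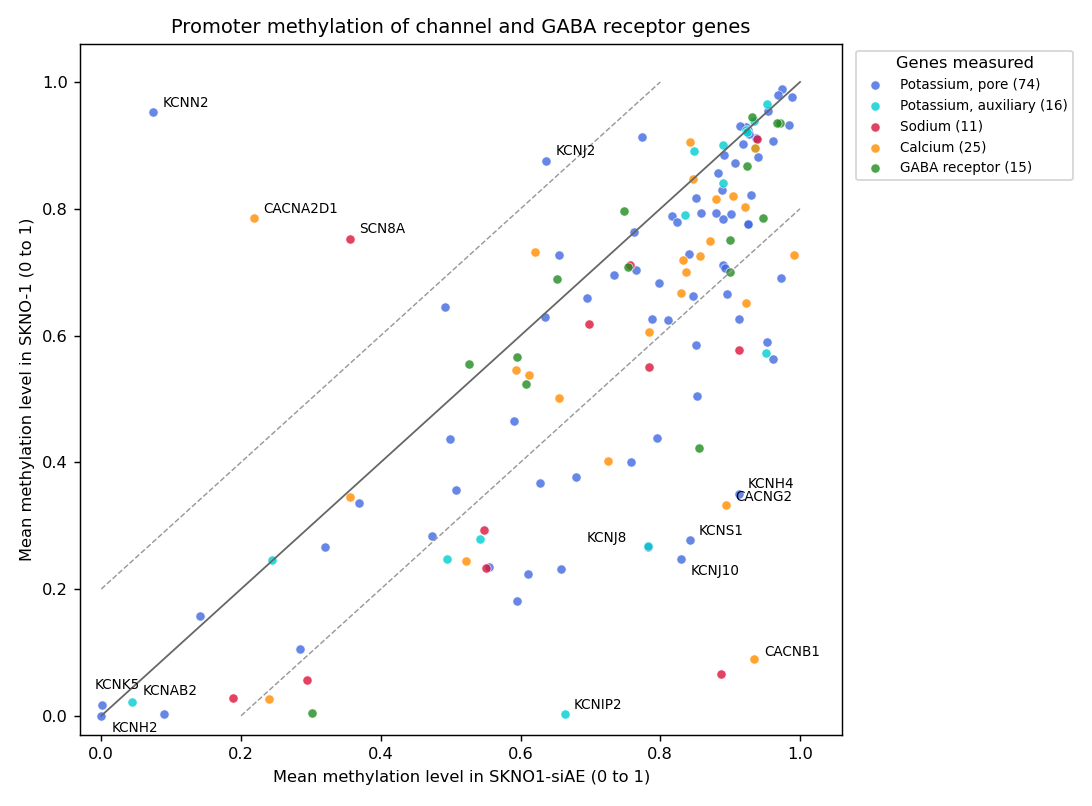
Mean promoter methylation level (0 to 1) of the 141 measured genes in SKNO1-siAE (horizontal axis) and SKNO-1 (vertical axis), 1 point per gene, coloured by group. The solid line marks equal levels and the dashed lines a difference of 0.2 either way. Of the points, 38 lie at 0.8 or more on both axes, 39 lie on or below the lower dashed line and 4 on or above the upper one.

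Counting every start gave the same order. Of the 551 measured starts, 131 (23.8%) were lower by 0.2 or more, against 12.9% of all starts, and 19 (3.45%) were higher, against 2.97%. At least 1 start was lower in 56 genes (39.7%), against 18.1% of all genes, and at least 1 start was higher in 7 genes (4.96%), against 4.16%. Channel genes had 3.91 measured starts on average and all genes 3.45, and starts of 1 gene often share sites. Each site was also compared between the libraries by a 2-sided Fisher's exact test, adjusted after Benjamini-Hochberg over all 3168726 sites shared in the genome, and was called at an adjusted p under 0.05 with a difference of at least 0.2. Of the 10341 sites in the windows of the measured channel starts, 1759 (17.0%) were called lower, against 10.4% of sites in all promoters, and 598 (5.78%) were called higher, against 3.88%. These tests compare 2 libraries and not the conditions.

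Few channel promoters were unmethylated in both libraries. Only 4 of 141 (2.84%) were under 0.1 in both libraries, against 34.8% of all genes, while 38 (27.0%) were at 0.8 or more in both, against 14.9%. These classes are defined by the levels in both libraries, so promoters within them differ little by definition. The class counts therefore cannot show whether the level of a promoter limits its difference. The part of the level in the contrast with all genes was not tested.

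CpG density was also set beside the counts, as the ratio of CpG observed to CpG expected from the base content of the window. Of the 65 channel promoters with a ratio of at least 0.6, 15 (23.1%) were lower in SKNO-1, against 11.8% of all genes in that class. Between 0.4 and 0.6 it was 15 of 41 (36.6%) against 15.4%, and under 0.4 it was 9 of 35 (25.7%) against 19.8%. All 4 genes higher in SKNO-1 were in the densest class (6.15% of its 65), where 2.65% of all genes were higher. Leaving out genes whose read totals differed between libraries by over 0.5 on the log2 scale, 28 of 107 channel genes (26.2%) were lower, against 13.5% of all genes.

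Among the pore-forming potassium channels, 19 of 74 genes were lower in SKNO-1 by 0.2 or more (25.7%, against 14.1% of all genes) and 2 were higher (2.70%, against 2.95%), with a median difference of -0.0755. The 8 KCNA genes, the Shaker channels that shorten spikes, held none past 0.2, and their levels in SKNO-1 had a median of 0.785. KCNA3, the channel that keeps T cells hyperpolarised, was at 0.930 in SKNO-1 and 0.922 in SKNO1-siAE, and the sign of this small difference changed with the upstream part of the window alone (-0.0312) and with pooled reads (-0.00831). Of the 8 Shab, Shaw and Shal genes (KCNB, KCNC and KCND) 1 was past 0.2.

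The genes with the largest differences among voltage-gated potassium channels were modifiers and members of the EAG group. KCNS1, a silent subunit that forms no channel alone and alters the channels of other subunits, was at 0.277 in SKNO-1 and 0.842 in SKNO1-siAE (36 sites). Its difference lay next to the start: in the 250 bp upstream, 19 sites were at 0.0298 and 0.848, while 10 sites farther upstream were at 0.875 and 0.886. Its difference of -0.565 was -0.335 with pooled reads and -0.359 with at least 10 reads per site. KCNG2, another silent subunit, was at 0.564 and 0.961. With KCNG3, 3 of the 10 modifier genes were lower by 0.2 or more (30.0%, against 14.1% of all genes). The difference of KCNG2 on the + strand was -0.781, and on the - strand it was -0.0146, whose sites lie elsewhere in the window. In the KCNH family, 3 of 7 genes were lower (42.9%, against 14.1% of all genes). One of them, KCNH8, was at 0.401 and 0.759 by the mean over sites, but at 0.779 and 0.838 with its reads pooled. KCNH4, a slowly closing channel of the brain, was at 0.351 and 0.912, with 50 of 76 sites called lower. KCNH1, the EAG channel, was at 0.223 and 0.610. KCNH2, whose channel repolarises the heart and has also been studied in leukemia cells, was at 0 in both libraries over 16 sites, all on the + strand and 751 to 1000 bp upstream, with 110 and 270 site reads. Where each library used its own sites, KCNH2 was higher in SKNO-1 by 0.258. None of the 5 KCNQ genes was past 0.2 at the start that represents it. Over all their measured starts, however, 11 of 26 were lower by 0.2 or more (42.3%, against 12.9% of all starts). The lowest of these differed by -0.864.

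**Figure D2:**
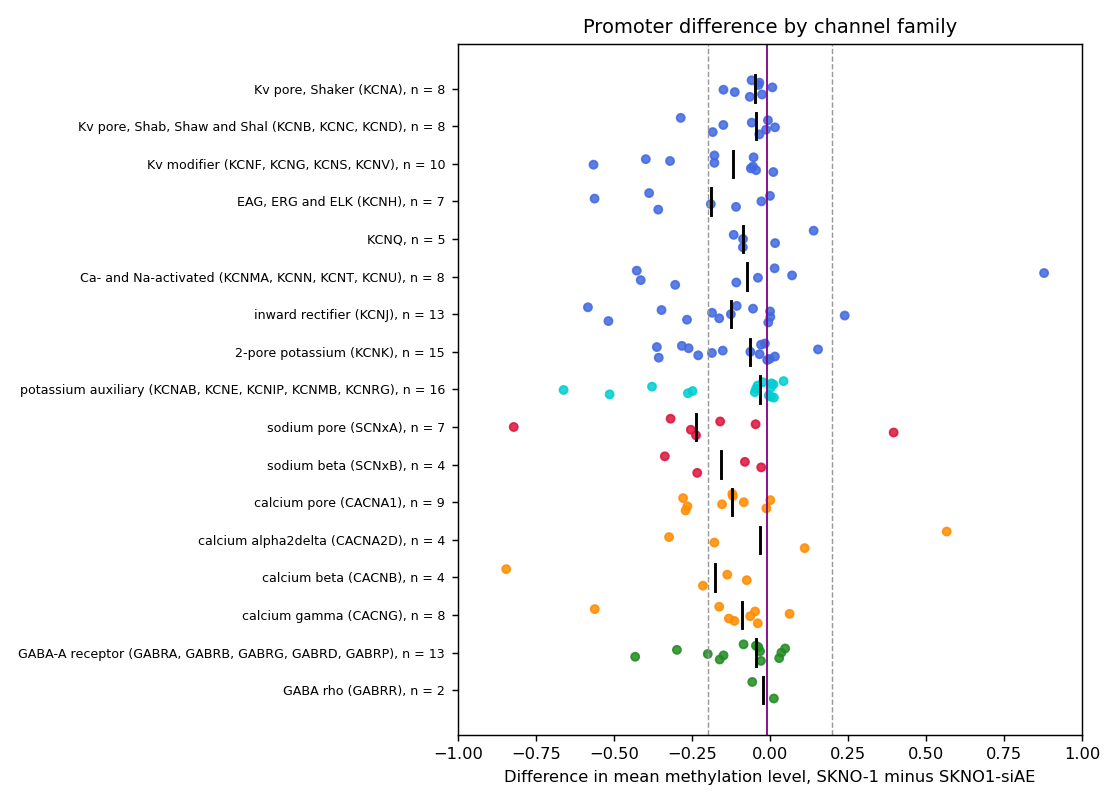
Difference in mean promoter level (SKNO-1 minus SKNO1-siAE) for each measured gene, in 17 channel families, with 1 point per gene, its family's median as a black bar, the median of all genes (-0.00848) as a purple line and dashed lines at 0.2 either way. Every family median lies left of the purple line, and KCNN2 (0.878) and CACNB1 (-0.845) lie farthest from 0.

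The channels opened by internal calcium or sodium went both ways. KCNN2 encodes a small-conductance calcium-activated channel that follows the spikes of neurons and heart muscle. It was at 0.952 in SKNO-1 and 0.0743 in SKNO1-siAE over 105 sites, the largest difference of any channel gene (0.878), with 86 sites called higher and 0 called lower. Methylation in SKNO1-siAE was found at 13 of the 31 sites in the first 250 bp of the transcript, all on the - strand and at 0.6 from 5 reads each, and at no other site of the window. Pooled over its reads, the share methylated was 0.960 in SKNO-1 (95% Wilson interval 0.947 to 0.970) and 0.0374 in SKNO1-siAE (0.0275 to 0.0508). Its relative KCNN1 differed the other way, at 0.231 and 0.658. KCNN3 was at 0.726 and 0.656, and KCNN4, the calcium-activated channel of red blood cells and lymphocytes, at 0.695 and 0.734. KCNT1, a sodium-activated channel, was at 0.181 and 0.595, a difference of -0.414 that came to -0.259 where each library used its own sites. The 4 KCNN genes thus held 1 far higher, 1 lower and 2 within 0.2. Of the 8 KCNMA, KCNN, KCNT and KCNU genes, 3 were lower (37.5%, against 14.1% of all genes) and 1 was higher (12.5%, against 2.95%).

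Of the 13 inward rectifiers, 4 were lower (30.8%, against 14.1% of all genes) and 1 was higher (7.69%, against 2.95%). KCNJ10, the channel with which glial cells clear potassium, was at 0.247 in SKNO-1 and 0.830 in SKNO1-siAE over 71 sites. Far from the start the lines did not differ, with 5 sites more than 1250 bp upstream at 1 and 0.971. In the 250 bp before the start, 12 sites were at 0.0333 and 0.715. KCNJ8, the pore of a potassium channel closed by ATP in blood vessels, was at 0.266 and 0.783, a difference of -0.517 that was -0.851 over the 12 sites with at least 10 reads. KCNJ2, the classic inward rectifier of heart and skeletal muscle, was at 0.876 and 0.637. Its difference came from the sites around and after the start, where 10 sites in the first 250 bp were at 0.906 and 0, the latter from 52 site reads, while 19 sites more than 500 bp upstream, in the next 250 bp, were at 0.969 and 0.984. SKNO-1 had more reads in this window (log2 ratio 1.03), whose part in the difference was not tested. The difference of 0.239 was 0.121 with at least 10 reads per site and 0.0169 with the upstream part of the window alone.

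The 2-pore channels (KCNK), which leak potassium at rest, held 5 lower genes of 15 (33.3%, against 14.1% of all genes) and none higher by 0.2 (against 2.95%). KCNK13 was at 0.591 in SKNO-1 and 0.953 in SKNO1-siAE, and KCNK6 at 0.439 and 0.795. KCNK16, a channel of pancreatic islets, was at 0.646 and 0.492, a difference of 0.154 that came to 0.270 over the 9 sites upstream of its start and to 0.0973 where each library used its own sites. KCNK5 was among the 4 channel promoters that were unmethylated in both lines.

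Among the 16 auxiliary potassium subunits, 5 genes were lower (31.3%, against 14.1% of all genes) and none was higher by 0.2 (against 2.95%), and the median difference was -0.0312. Of their 74 measured starts, 15 were lower (20.3%, against 12.9% of all starts) and 7 were higher (9.46%, against 2.97%). KCNIP2 encodes a calcium-binding protein that brings KCND channels to the membrane of heart cells. It had almost no methylation in SKNO-1, at 0.00241 over 83 sites, and was at 0.663 in SKNO1-siAE. The difference of -0.661 was -0.388 over the 36 sites with at least 10 reads. The level in SKNO1-siAE was split by position. The 27 sites in the 250 bp upstream of the start were at 0 in SKNO-1 and 1 in SKNO1-siAE, whereas the 23 sites 751 to 1000 bp upstream were at 0 and 0.00687. KCNMB2, which inactivates the large calcium-activated channel, was at 0.268 and 0.782, a difference of -0.514 that was -0.779 over the 11 sites with at least 10 reads. The 4 sites more than 250 bp downstream of its start were at 1 in both lines. KCNE3 was at 0.573 and 0.951, and at 0.708 and 0.95 with its reads pooled. KCNE1 and KCNE2, which slow or reshape heart potassium currents and lie near RUNX1 on chromosome 21, were at 0.900 and 0.889 and at 0.896 and 0.935.

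**Figure D3:**
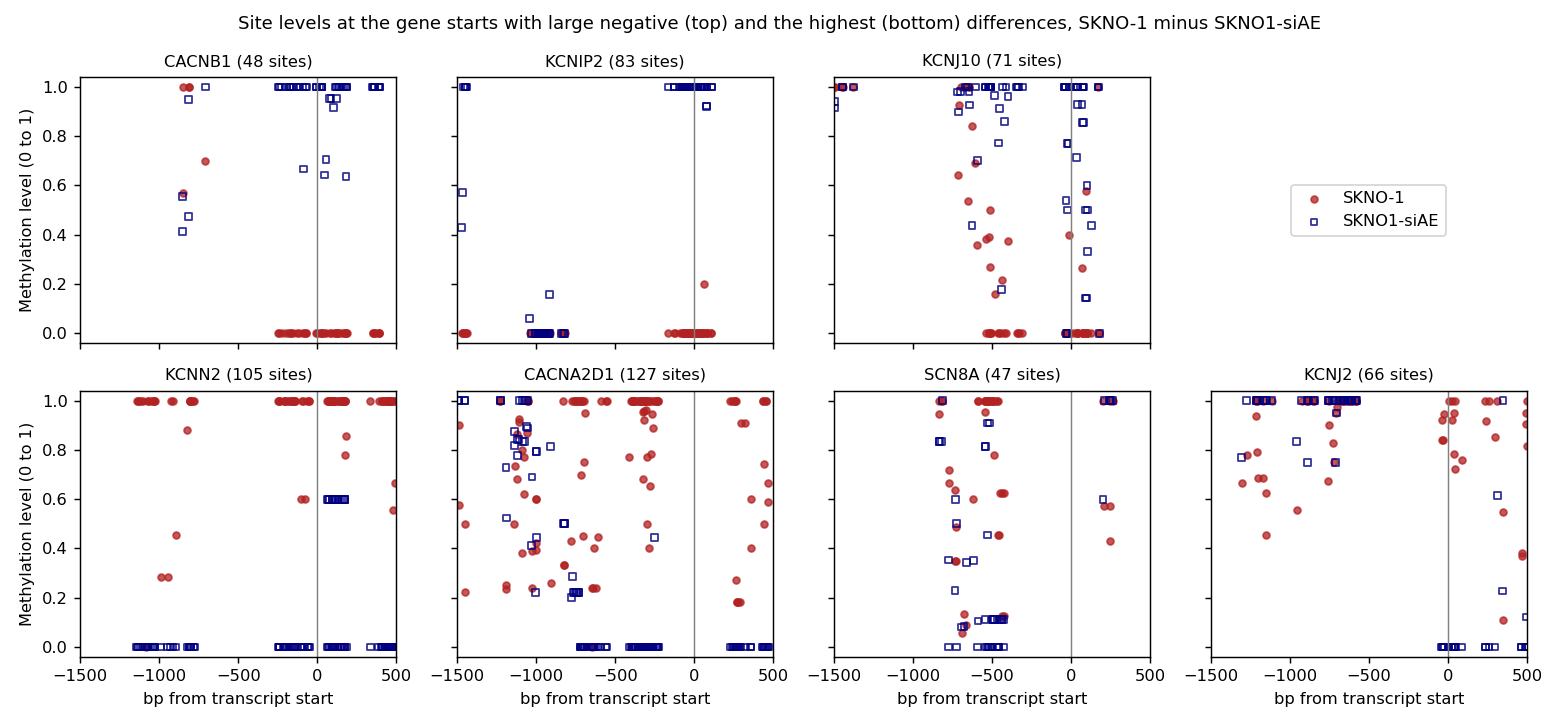
Methylation level of each shared site (0 to 1) against its distance in bp from the transcript start, for 3 genes with large negative differences (top) and the 4 genes with the highest differences (bottom), with filled circles for SKNO-1 and open squares for SKNO1-siAE. At CACNB1 and KCNIP2 the sites around the start lie at or near 0 in SKNO-1 and mostly at 1 in SKNO1-siAE, at KCNN2 the lines change places, and at KCNJ2 the lines part around and after the start.

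The sodium channels had the most negative median of the 5 groups, -0.233 over 11 genes. Of these, 6 were lower (54.5%, against 14.1% of all genes) and 1 was higher (9.09%, against 2.95%). SCN10A, which carries the sodium current of pain-sensing neurons, was at 0.233 in SKNO-1 and 0.551 in SKNO1-siAE over 12 sites. SCN8A, the channel at the start of the axon, went the other way, at 0.752 and 0.356 over 47 sites, with 21 called higher and 0 called lower. The difference of 0.396 was 0.595 with at least 10 reads per site. Its 14 sites 251 to 500 bp upstream were at 0.701 and 0.0714, while 5 sites in the first 250 bp of the transcript were at 0.714 and 0.920. The beta subunits, which anchor sodium channels, were below 0 in 4 of 4 genes, beside 79.4% of channel genes and 61.6% of all genes. SCN4B was at 0.551 and 0.784, and its difference of -0.233 was -0.0880 with at least 10 reads per site.

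Among the calcium channel genes, 7 of 25 were lower (28.0%, against 14.1% of all genes) and 1 was higher (4%, against 2.95%). The median difference was -0.121. The pore genes held 3 lower of 9 (33.3%, against 14.1% of all genes). CACNA1C, the calcium channel of heart and vessel muscle, was at 0.244 and 0.522, with a difference of -0.403 on the - strand and 0.00663 on the + strand. It came to -0.162 where each library used its own sites. CACNA1S, its counterpart in skeletal muscle, was at 0.652 and 0.922 over 14 sites. At the starts that represent the channel genes, the largest difference toward lower methylation was that of CACNB1. This gene, for the beta subunit that carries the skeletal muscle channel to the membrane, was at 0.0890 in SKNO-1 and 0.934 in SKNO1-siAE over 48 sites. Its pooled shares were 0.133 (95% Wilson interval 0.105 to 0.168) and 0.916 (0.891 to 0.935), and 42 of 48 sites were called lower. The 2 sites called higher were among 4 sites 751 to 1000 bp upstream, at 0.893 and 0.598. CACNB4 was at 0.0260 and 0.241, a difference of -0.215 that ranged from -0.0556 upstream of the start only to -0.418 with merged strands.

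The alpha2delta genes, whose products raise the number of calcium channels at the membrane, were split. CACNA2D1, whose product binds gabapentin, was at 0.785 in SKNO-1 and 0.219 in SKNO1-siAE over 127 sites, with 81 called higher and 5 called lower. The 41 sites 251 to 500 bp upstream were at 0.932 and 0.0108. More than 1000 bp upstream the order turned, with 22 sites at 0.691 and 0.817. CACNA2D2 was at 0.402 and 0.725, and CACNA2D4, known from the retina, at 0.732 and 0.621, a difference of 0.111 that was 0.0517 with pooled reads. Of the gamma genes 1 of 8 was past 0.2, toward lower methylation (12.5%, near the 14.1% of all genes that were lower). This was CACNG2, stargazin, which carries AMPA receptors to synapses, at 0.333 and 0.895 over 12 sites that all lie on the - strand.

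The GABA receptor genes had the lowest share of the 5 groups, with 2 of 15 lower (13.3%), near the 14.1% of all genes. None was higher by 0.2, and the median difference was -0.0450. Of the alpha subunits, which help to form the GABA binding site, GABRA6 was at 0.0037 in SKNO-1 and 0.302 in SKNO1-siAE over 12 sites. It had little methylation in SKNO-1 beside GABRA2 at 0.708 and 0.753, GABRA4 at 0.935 and 0.972 and GABRA5 at 0.796 and 0.748. Of the beta subunits, which form the other face of that site, GABRB1 was at 0.935 and 0.967 and GABRB2 at 0.689 and 0.652.

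Of the gamma subunits, which receptors need to bind benzodiazepines, GABRG1 was at 0.423 in SKNO-1 and 0.855 in SKNO1-siAE over 17 sites. This was the largest difference among the best covered starts of the GABA receptor genes. GABRG3 was at 0.786 and 0.947, a difference of -0.161 that was -0.0965 with at least 10 reads per site. GABRD, the delta subunit of receptors outside synapses, was at 0.750 and 0.899 at its best covered start. Its start GABRD-204, farther upstream, was at 0.164 and 0.660 over 52 sites. GABRP, a subunit found outside the brain, was at 0.566 and 0.595. The rho subunits of the retina, GABRR1 and GABRR2, were at 0.868 and 0.924 and at 0.944 and 0.932. The differences of GABRB2, GABRA5 and GABRR2, above 0 here, were -0.0164, -0.0736 and -0.00422 with at least 10 reads per site.

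**Figure D4:**
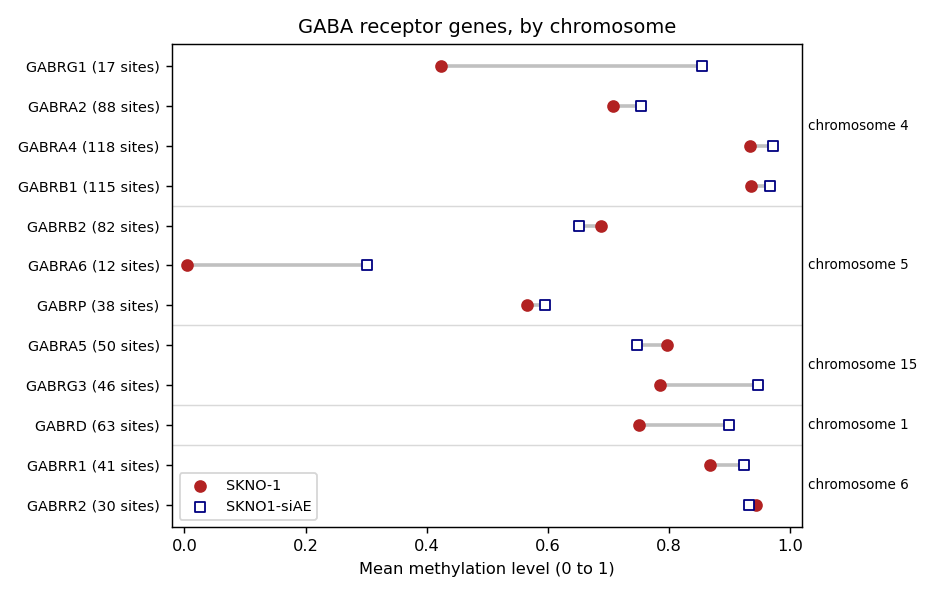
Mean promoter level (0 to 1) of 12 GABA receptor genes in SKNO-1 (filled circles) and SKNO1-siAE (open squares), joined by a bar and ordered by chromosome. GABRG1 and GABRA6 have the longest bars, and GABRB2, GABRA5 and GABRR2 lie slightly higher in SKNO-1, an order that turned for these 3 with at least 10 reads per site.

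GABA receptor genes lie in clusters, and the neighbours of the lower genes described here were within 0.2. GABRG1 shares a cluster on chromosome 4 with GABRA2, GABRA4 and GABRB1, which differed by -0.0450, -0.0371 and -0.0318. The starts of GABRA4 and GABRB1 are 142 bp apart on opposite strands and share 108 sites, so they are nearly 1 measurement. GABRA6 lies on chromosome 5 near GABRB2, which differed by 0.0364. In the chromosome 15 cluster, SKNO-1 had more reads at GABRA5 and GABRG3 (log2 ratios 1.02 and 1.17), and the ratio over shared sites of that chromosome was 0.50. The part of read number in their levels was not tested.

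Several genes differed at one start and not at another. The starts given here were picked with their values in view. KCNQ1, a channel of heart and inner ear, was at 0.428 in SKNO-1 and 0.917 in SKNO1-siAE at KCNQ1-201 over 49 sites and at 0.913 and 0.773 at KCNQ1-202 over 51 sites. KCNIP1-202 was at 0.249 and 0.879, while the best covered KCNIP1 start differed by -0.0447. KCNK10-204 was at 0.369 and 0.851, and the best covered KCNK10 start differed by -0.0286.

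Starts lower and higher by 0.2 within 1 gene were found in 2 genes. KCNIP2-203 differed by -0.661. Of 4 starts farther upstream, 3 were past 0.2 the other way, by 0.221 to 0.241 over 10 to 12 sites, the highest at 0.505 in SKNO-1 and 0.264 in SKNO1-siAE. KCNE1-203 was at 0.982 in SKNO-1 and 0.462 in SKNO1-siAE over 14 sites, a difference of 0.521, while KCNE1-205 was at 0.568 and 0.798. In KCNN2, the start KCNN2-209 was at 0.921 and 0 over 39 sites, but KCNN2-205, far upstream, was at 0.906 and 0.942 over 76 sites. The KCNN2 starts described here were thus all above 0.9 in SKNO-1, and in SKNO1-siAE the far one alone was above 0.1.

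The difference varied with distance from the start, in bins that held 55 to 117 genes. Over channel genes it was greatest in the 250 bp just upstream, where 1458 sites of 117 genes were at 0.537 in SKNO-1 and 0.702 in SKNO1-siAE (-0.166), and nearly as great between 1000 and 1250 bp upstream (-0.153). It was smallest 751 to 1000 bp upstream, at 0.608 and 0.669. Over all genes it was between -0.0550 and -0.0631 in each bin. The 39 lower genes, which were selected on this difference, carried the gap at the start, with 290 sites in the first 250 bp of the transcript at 0.236 and 0.737. The other channel genes differed by -0.0260 there, by -0.0696 just upstream and most between 1000 and 1250 bp upstream (-0.112). All genes had a dip of methylation at the start, to 0.263 and 0.323 just upstream, which channel genes showed to a far smaller depth in SKNO-1 and hardly at all in SKNO1-siAE.

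**Figure D5:**
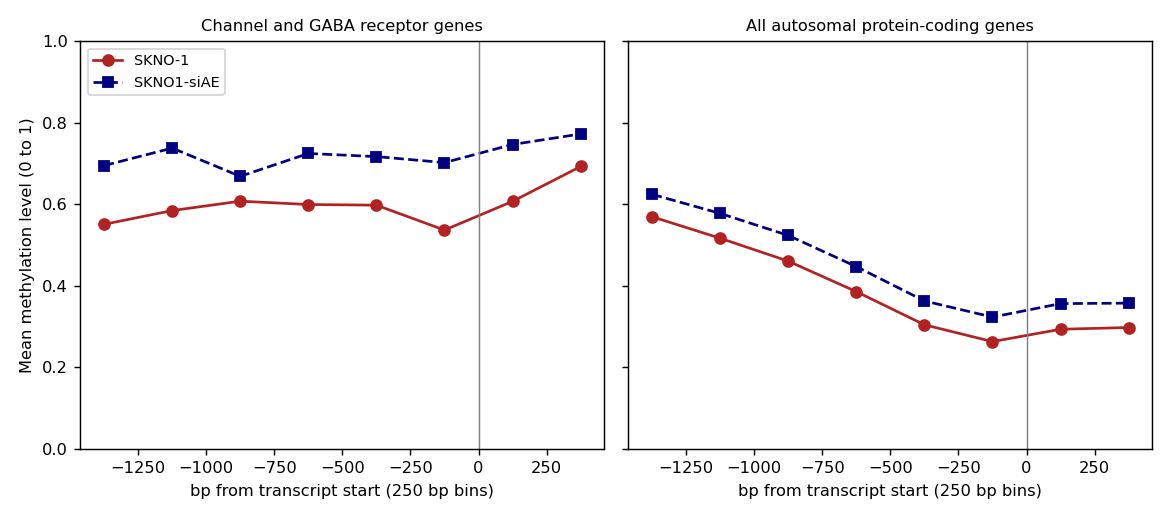
Mean methylation level (0 to 1) in 250 bp bins by distance from the start, for channel and GABA receptor genes (left) and all autosomal protein-coding genes (right), SKNO-1 as circles and SKNO1-siAE as squares. Levels of channel genes stay above 0.5 throughout, with the widest gap just upstream of the start (0.537 and 0.702), whereas levels of all genes fall toward the start.

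A CpG has a cytosine on both strands, each read separately, so the strands gave a check within a library. Of 129 channel genes with at least 5 sites on each strand, 98 had the same direction on both. Of the 37 of these past 0.2, 32 did. Among the exceptions were CACNA1C, KCNH8, SCN4B and SCN7A, where one strand was past 0.2 and the other near 0 or of the other sign. The strands often cover different sites. KCNG3, SCN11A and the pair GABRA4 and GABRB1 had the coding start of another gene inside their windows.

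Other genes of GABA signalling and other channels were described for comparison. Of 15 genes for GABA synthesis, transport, anchoring and GABA-B receptors, 13 were measured and 2 (15.4%) were lower by 0.2, near the 14.1% of all genes. These were GAD1, which makes GABA, at 0.152 in SKNO-1 and 0.386 in SKNO1-siAE, and SLC6A12, a GABA and betaine transporter, at 0.0960 and 0.309. The median of the list was -0.0060. Of 41 measured genes for other ligand-gated channels (glutamate, acetylcholine, glycine, serotonin and ATP receptors), 11 (26.8%) were lower, against 14.1% of all genes. In that list 2 (4.88%) were higher, against 2.95% of all genes. Of 44 measured genes for other cation and chloride channels, 7 (15.9%) were lower and 1 (2.27%) was higher, both near the shares of all genes.

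Promoters of cell type markers were read as a check of the label. Of 8 markers of myeloid and blood cells 5 were measured. SPI1 was at 0.315 in SKNO-1 and 0.329 in SKNO1-siAE, CSF3R at 0.432 and 0.415, CD33 at 0.217 and 0.403 and KIT at 0.205 and 0.606, whereas CD34 was at 0.982 and 0.952. KIT had 5933 site reads in SKNO-1 and 1377 in SKNO1-siAE, whose part in its levels was not tested. The 3 T cell markers were at 0.679 to 0.749 and 0.752 to 0.867. The B cell marker CD79A was higher in SKNO-1, at 0.669 and 0.507. Markers of neurons also differed, with RBFOX3 at 0.175 and 0.958 and TUBB3 at 0 and 0.455, and of 4 epithelial markers KRT8 did, at 0.487 and 0.881. Gene expression was not analysed here.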

How the data were processed

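MCC-Seq was carried out by the authors on bisulfite-converted DNA of SKNO-1 and SKNO1-siAE, captured with Roche NimbleGen SeqCap Epi probes. Per the submitters' processing notes, reads were handled with cutadapt 1.4.2 and BSMAP 2.73 on hg19. The deposited values are raw counts of methylated and unmethylated reads for each CpG cytosine and strand, without normalization, with 5 reads or more at each deposited site. The removal of PCR duplicates is not described in the sources used here.

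From these counts, sites reaching 5 reads in each library were kept. All 3125690 such autosomal sites were checked to be CpG cytosines on their strand in GRCh37. Transcript starts came from GENCODE release 44 lifted to GRCh37. Site levels were averaged per start from 1500 bp upstream to 500 bp downstream, with at least 10 sites. With 1 library per cell line, differences of at least 0.2 were counted beside the same count over all genes, and no test of the conditions was possible. Single sites were compared between the 2 libraries with a 2-sided Fisher's exact test with Benjamini-Hochberg adjustment over all shared sites. Median depths of 16 and 15 reads leave the level of a single site imprecise. Pooled shares have 95% Wilson intervals.

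The genes, lists and limits were chosen with earlier results of these data known. Named were each measured GABR gene, up to 2 genes in each direction past 0.2 in each other of 17 families, the 8 lowest and 8 highest differences, KCNA3, KCNN4, KCNJ2, KCNH2, KCNE1 and KCNE2, and genes with starts past 0.2 in both directions. Some items under this rule are not reported here. Other genes and starts in the text were picked with their values in view. The alternatives were at least 10 reads, merged strands, reads pooled per start, each library's own sites, the upstream part only, at least 20 sites, a difference of 0.3, all windows of a gene, and for sites Bonferroni adjustment and no minimum difference. Tables were made with pandas 2.3.3 and numpy 2.4.6 under python 3.11.15, tests with scipy 1.17.1 and numba 0.67.0, and sequences were read with pysam 0.24.0. Figures were drawn with matplotlib 3.10.9.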

Additional observations from a re-analysis of the deposited data

How the results depend on the processing

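No paired analysis was possible because each cell line had 1 library, and for the same reason no replicate could be left out. Of 44 recomputed counts and medians, 29 stayed within their limit and 15 moved. With at least 10 reads per site, 2 of 124 genes were higher in SKNO-1, the median difference of starts was -0.0791 (-0.0747 as reported) and, of 5623 sites, 1070 were called lower and 358 higher. The median was -0.0858 with pooled reads, -0.0643 with merged strands, -0.0810 with the own sites of each library, -0.0631 upstream of the start only and -0.0648 with at least 20 sites, where 12 starts were higher. A limit of 0.3 left 71 starts lower and 12 higher, and 24 genes lower. Bonferroni adjustment left 229 sites lower and 78 higher. The count of genes lower was between 29 and 43 under the settings other than the limit of 0.3. At a limit of 0.2, CACNA1C dropped out with the own sites of each library (-0.162), SCN4B with at least 10 reads (-0.0880), CACNB4 under 3 settings (-0.0556 to -0.147) and KCNJ2 under 4 (0.0169 to 0.182). KCNH2 came to 0.258 with own sites and KCNK16 to 0.270 upstream only. With at least 10 reads, KCNIP2 was -0.388, KCNS1 -0.359, KCNJ8 -0.851, KCNMB2 -0.779 and SCN8A 0.595, and GABRB2, GABRA5 and GABRR2 fell below 0. KCNS1 was -0.335 and GABRR2 -0.00803 with pooled reads, KCNT1 was -0.259 with own sites, CACNB4 was -0.418 with merged strands, and KCNA3 fell below 0 with pooled reads and upstream only. KCNK16 was 0.0973 with own sites, CACNA2D4 0.0517 with pooled reads and GABRG3 -0.0965 with at least 10 reads. The small differences of GABRA2, GABRB1, GABRP, GABRR1, KCNE1, KCNE2, KCNN3 and KCNN4 moved by over 1.5 times under some settings and kept their sign. Beyond the stricter limits themselves, the cause was not tested. At about 15 reads, a single site shows only large differences.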

Other observations

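Among the other cation channels, 2 subunits of the epithelial sodium channel, which takes up sodium in kidney and lung, had large differences. SCNN1A was at 0.193 in SKNO-1 and 0.916 in SKNO1-siAE over 50 sites, and SCNN1G at 0.0202 and 0.749 over 19 sites. Their partner SCNN1B was at 0.929 and 0.971, and SCNN1D at 0.555 and 0.731. Among the acetylcholine receptors, CHRNA3 was at 0.233 and 0.873 over 14 sites and CHRNB2 at 0.104 and 0.592 over 56 sites. Among the glutamate receptors, GRIK2 was at 0.410 and 0.938 over 113 sites, while GRIK5 was higher in SKNO-1, at 0.839 and 0.460 over 12 sites. TRPM2, a calcium-permeable channel of white blood cells, was also higher in SKNO-1, at 0.399 and 0.0329 over 55 sites. These genes were chosen after their values were seen.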
